A study of Homo sapiens with 6 samples.

Results

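The uridine sites of an ac4C-seq experiment are described here. They are the listed transcript positions whose reference base is T, chosen by that base alone. The table of control cells held 216 of them among 1352 listed sites and the table of NAT10 knockdown held 161 among 1001, which makes 377 of 2353. The samples, 3 of the control and 3 with NAT10 knockdown, came from PANC-1, a long-established line of human pancreatic ductal adenocarcinoma, and the labels name both short hairpin and small interfering RNA as the silencing agent. Captured mRNA of each sample was reduced with sodium borohydride (NaBH4), and an aliquot was kept without NaBH4, so each group had 3 treated and 3 untreated libraries. All samples came from the same line, and nothing in the labels says that the replicates were separate cultures, so p-values measure the spread between these samples. No NAT10 level was measured by these tables, so the knockdown itself could not be checked here. The paper reports that it checked NAT10 silencing in PANC-1 cells by qRT-PCR and western blotting.

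NAT10 acetylates cytidine to N4-acetylcytidine, or ac4C. After reduction with NaBH4 an acetylated cytidine mispairs in reverse transcription and is read in part as T, which makes C-to-T the change the assay is built to read. Uridine carries no such acetyl group, and its best known modified forms in RNA are pseudouridine, dihydrouridine and 5-methyluridine. A change at a listed uridine can be T-to-C, T-to-G or T-to-A, written on the transcript strand. The mismatch level below is the percent of reads with any of these changes among all reads at the site in a library.

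A site was listed for a group as a whole, with the 3 replicates called together. Every listed uridine site had at least 3 mismatched reads in each treated library and 0 in each untreated one. The contrast of treated with untreated RNA at these sites is therefore part of how they were listed and is given as a description. The deposited reads over the uridine sites numbered 33358, 34788 and 34021 after NaBH4 in the control, whose untreated libraries held 22552, 25971 and 27418. They numbered 24624, 23958 and 23817 in the treated NAT10 knockdown libraries and 20779, 18842 and 18905 in the untreated ones. The total depth of the libraries is not known, and sites on some chromosomes were not analysed here, so counts of sites hold for the sites analysed here only.

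To show what the changed letters stood next to, sequence was read around the 15 uridine sites that lay in a RefSeq window around a gene start on GRCh38.p14. A window runs from 250 bases before the annotated start to 50 bases from it. Each line gives 10 bases on either side of the site, or as many as the window holds, 5′ to 3′ on the strand of the site, with the listed uridine as the capital T. The name is that of the gene that holds the site or, for CUEDC2, SF3B2 and TAPBP, of the gene whose start lies just downstream. The sites in COPB2, RAB6A and SLC38A2 fell in windows of COPB2-DT, LOC124902711 and SLC38A2-AS1, which lie on the opposite strand.
CUEDC2 (control, T-to-G, chr10:102432581-102432601, minus strand): ttgatctcgtTggtggggctg
SF3B2 (control, T-to-G, chr11:66052349-66052369, plus strand): gcttccgggtTggtcgcgcgc
PAPOLA (control, T-to-G, chr14:96502379-96502399, plus strand): tctagaacgtTgctgtggtag
ACADVL (control, T-to-G, chr17:7219969-7219987, plus strand): ccggagagatTcggagatg
ZNF593 (control, T-to-G, chr1:26169924-26169944, plus strand): ctcacacgtgTgctccctgcc
PSMG1 (control, T-to-G, chr21:39183407-39183427, minus strand): cccgcggcgcTgcagttgtgt
COPB2 (control, T-to-G, chr3:139389555-139389575, minus strand): ttcccgggatTggaccgacgc
AP3S1 (control, T-to-G, chr5:115841958-115841978, plus strand): caggcgagatTacgaggcgag
TOMM6 (control, T-to-C, chr6:41787704-41787724, plus strand): tccagcactgTcccggtgagc
PRPF19 (NAT10 knockdown, T-to-G, chr11:60906566-60906586, minus strand): caatttccgtTaggtgctgaa
RAB6A (NAT10 knockdown, T-to-A, chr11:73760955-73760975, minus strand): tcagcttctcTtccccaggtc
SLC38A2 (NAT10 knockdown, T-to-G, chr12:46372550-46372570, minus strand): gatttgtattTgactgagaga
U2AF1 (NAT10 knockdown, T-to-G, chr21:43107561-43107581, minus strand): cgcgtccgggTgacgtctccc
GAR1 (NAT10 knockdown, T-to-G, chr4:109815751-109815771, plus strand): accccgcgggTgggtgtgtgc
TAPBP (NAT10 knockdown, T-to-C, chr6:33314134-33314154, minus strand): caccttcaccTaaccagagcg
The reference letter in the tables equalled the RefSeq letter at all 103 listed sites of any base that fell in such windows. Among these 15 sites, T-to-G was the most frequent change at 12, T-to-C at 2, in TOMM6 and near TAPBP, and T-to-A at 1, in RAB6A. That is 80% T-to-G against 40.1% over all 377 uridine sites. The T was followed by G at 9 of the 15 sites, or 60%, where 30.5% of all T in the windows were. It was preceded by T at 8 of 15, or 53.3%, against 26.8% of all T in the windows, and the run TTG was centred on the site at 5 of 15, or 33.3%, against 6.10%. All 9 sites followed by G were among the 12 T-to-G sites. The windows hold mainly sequence before the start, also of genes without a listed site, so all T in them are only a rough background. These shares describe 15 sites in start windows and were not tested. The other 362 sites lay outside the windows, and their sequence was not analysed here.

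Mismatch levels at these 15 sites ran from 1.17% near TAPBP to 8.95% in U2AF1. The site in PAPOLA, the canonical poly(A) polymerase, was base 14 from the start in its window, and G was read at 8 of its 252 treated reads. The site in U2AF1, which helps recognise the 3′ splice site, lay inside the gene span, 1 base before the start in its window, and G was read 5, 3 and 4 times among 44, 36 and 56 treated reads. No other mismatch was read there, and the level was 8.95% ± 2.18 (SD, n = 3). GAR1, a core protein of the H/ACA particles that guide pseudouridine formation, had a site inside its span, 1 base before the start in the window, with a level of 1.61% ± 0.108 (SD, n = 3). The site 5 bases before SF3B2, a subunit of the splicing factor that binds the branch point region, gave G in 5, 15 and 7 reads of 343, 347 and 332 and no other change. The site of PRPF19, a spliceosome-associated ubiquitin ligase, was base 10 from the start in its window and had a level of 3.71% ± 0.436 (SD, n = 3). ACADVL, a mitochondrial acyl-CoA dehydrogenase, had G in 17 of 1435 treated reads, and COPB2, a coatomer subunit, in 9 of 472. TOMM6, a subunit of the mitochondrial import machinery, had C in 10 of 525 treated reads.

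T-to-C and T-to-G were each more frequent than T-to-A at uridine sites in every treated library. T-to-G exceeded T-to-C in all 3 knockdown libraries and in control replicates 1 and 2. T-to-C made up 40.2%, 41.8% and 45.1% of the mismatched reads in the control libraries. It made up 38.6%, 35.8% and 35.1% in the NAT10 knockdown libraries. All 3 control values lay above all 3 knockdown values. The means were 42.3% ± 2.50 and 36.5% ± 1.83 (SD, n = 3 each). The difference had p = 0.1 by a two-sided exact permutation test, the smallest value that 3 against 3 can give, and p = 0.35 after Benjamini-Hochberg adjustment over 7 between-group comparisons. The separation was lost (exact permutation p = 0.2) with at least 20 reads in every library, where the difference of -5.83 percentage points shrank to -3.34, and with the authors' p-value under 0.01, where it was -3.95.

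The share of T-to-G was 41.9%, 44.3% and 39.9% for the control and 40.7%, 47.8% and 47.5% after the knockdown. The groups overlapped, with means of 42.0% ± 2.17 and 45.3% ± 3.97 (SD, n = 3) and p = 0.3 by the exact permutation test (adjusted p = 0.35). T-to-A was the least frequent change in every treated library, with 15.6% ± 2.06 for the control against 18.2% ± 2.23 with NAT10 silenced (SD, n = 3), and p was 0.3 by the exact permutation test (adjusted p = 0.35). None of the 3 shares differed between the groups at the threshold of 0.05, which this design cannot reach. The tables shared no uridine position, so these shares compare lists of different sites. The count of shared positions at the other bases is not given here, so the 0 is not read as a trait of uridine.

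**Figure D1:**
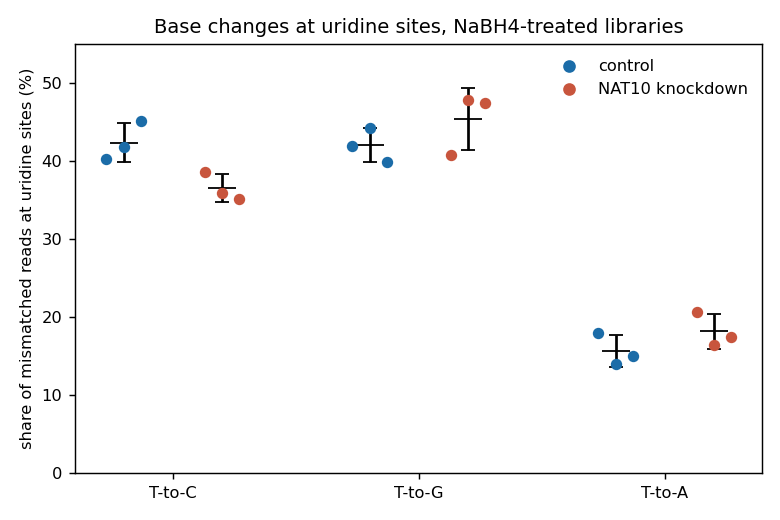
Share of mismatched reads at uridine sites that carried C, G or A, in percent, for each of the 6 treated libraries (points), with the mean and SD of each group of 3. The T-to-C points of the control lie at 40.2% to 45.1% and those of NAT10 knockdown at 35.1% to 38.6%, while the T-to-G and T-to-A points of the groups overlap.

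Counted by site, T-to-C was the most frequent change at 103 of 216 control sites (47.7%, 95% Wilson interval 41.1% to 54.3%) and at 59 of 161 NAT10 knockdown sites (36.6%, 29.6% to 44.3%). T-to-G led at 83 control sites (38.4%, 32.2% to 45.1%) and at 68 knockdown sites (42.2%, 34.9% to 49.96%). T-to-A led at 25 sites in each table, and changes were tied for first place at 5 control and 9 knockdown sites. These intervals, like all intervals here, cover counting error only.

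Sites led by T-to-G were covered by more reads than sites led by T-to-C, had lower levels and were less mixed. Their median depth over the 3 treated libraries was 480 reads for the control and 424.5 for the knockdown, where T-to-C sites had 221 and 252. Their median mismatch level was lower, at 2.56% and 3.19%, where T-to-C sites had 5.95% and 4.84%. G was the sole change at 35 of 83 control and 33 of 68 knockdown T-to-G sites, whereas C was the sole change at 11 of 103 and 3 of 59 T-to-C sites. In the median T-to-G site G made up 91.7% of the mismatches for the control and 95.6% for the knockdown, where the median T-to-C site had 70.6% and 66.7% C. T-to-A sites were the most mixed, with medians of 60% and 55.6% A. These are descriptions of the 2 lists, and the sites of a list share their libraries.

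Agreement between replicates followed the same order. At least 3 reads of one and the same change were present in every treated library at 82 of 216 control uridine sites (38.0%), where 43.3% of all control sites met this. The count was 54 of 161 in NAT10 knockdown (33.5%), where 39.1% of all sites met it, so the uridine shares were near or below those of all sites. The 82 control sites were 48 T-to-G, 32 T-to-C and 2 T-to-A sites, and the 54 knockdown sites were 39, 13 and 2. When 2 mismatched reads of a uridine site were compared, the bases were equal in 72.2% of cases within a control library and in 62.5% of cases across control libraries. The values in NAT10 knockdown were 71.1% and 58.9%. Within control libraries, cytidine, adenosine and guanosine sites gave 76.6%, 73.4% and 80.5%, and across them 65.5%, 61.6% and 73.4%. In NAT10 knockdown these bases gave 77.7%, 71.0% and 77.3% within libraries and 66.7%, 56.7% and 66.8% across them. The leading base was the same in all 3 libraries at 100 control sites (46.3%) and 64 knockdown sites (39.8%). For cytidine, adenosine and guanosine sites this was 52.0%, 47.1% and 64.2% in the control and 54.1%, 35.1% and 53.8% in NAT10 knockdown.

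Mismatch levels were low at most uridine sites and reached high values where few reads covered the site. The mean level over the 3 treated libraries ran from 0.854% to 40.1% in the control, with quartiles of 1.99%, 3.87% and 7.96%. It ran from 1.02% to 38.3% in NAT10 knockdown, with quartiles of 2.17%, 4.10% and 8.95%. The treated reads of a site, summed over the libraries, ran from 38 to 2093 in the control (median 338.5) and from 34 to 2107 in NAT10 knockdown (median 320). The number of mismatched reads had a median of 4 in every treated library. It was exactly 3, the smallest number listed, in 232 of 648 site and library combinations of the control (35.8%) and in 169 of 483 of NAT10 knockdown (35.0%).

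The sites at the top of the range were shallow. PBRM1, a subunit of a SWI/SNF chromatin remodeller, had the highest level, with 4, 6 and 5 mismatched reads of 14, 12 and 12 (40.1% ± 10.8, SD, n = 3) and 7, 9 and 5 untreated reads. FBXO38, an F-box protein, had the highest level in NAT10 knockdown, with 4, 4 and 5 mismatched reads of 12, 10 and 12 (38.3% ± 4.41, SD, n = 3), and C and A were tied there. A median level of at least 20% was found at 6 control and 10 knockdown sites.

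**Figure D2:**
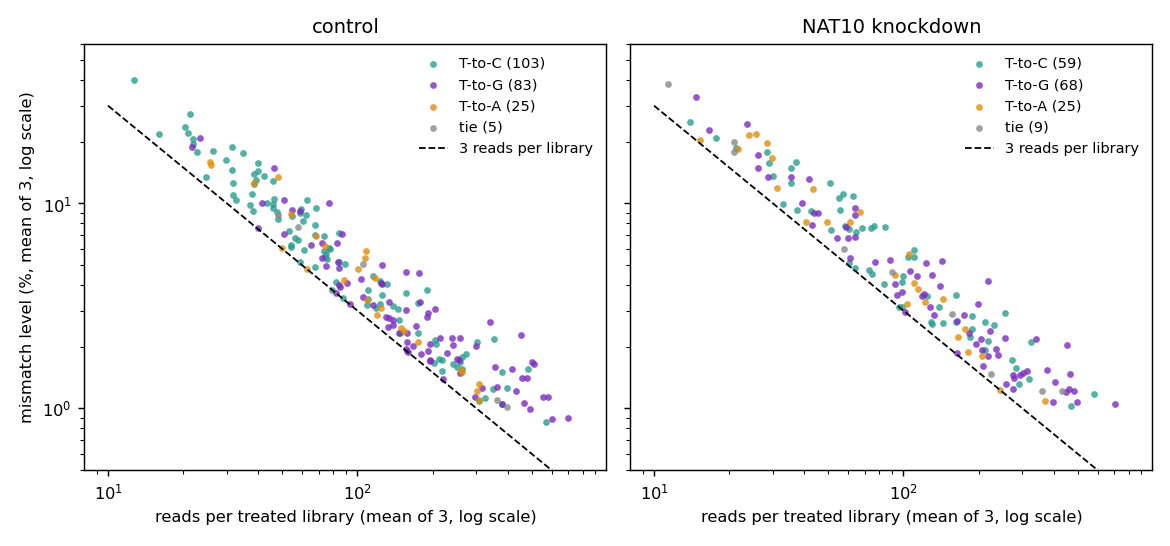
Mismatch level (mean of the 3 treated libraries, percent, log axis) against reads per treated library (mean of 3, log axis) for each uridine site, coloured by its most frequent change, in the control (left) and NAT10 knockdown (right). The dashed line is the level that 3 mismatched reads per library give, and both lists run along it, from 40.1% down to 0.854% in the control and from 38.3% down to 1.02% in NAT10 knockdown, with T-to-G sites towards the deep end.

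Per library, the median mismatch level over uridine sites averaged 3.64% ± 0.0760 for the control against 3.76% ± 0.0743 for the knockdown (SD, n = 3), with p = 0.2 by the exact permutation test (adjusted p = 0.35). The sign of this small difference turned under several alternatives given in the closing section. The mean over sites was 5.94%, 5.75% and 6.11% for the control replicates and 6.48%, 6.74% and 6.89% after the knockdown. All 3 knockdown means lay above all 3 control means, at 6.70% ± 0.209 against 5.93% ± 0.181 (SD, n = 3; exact permutation p = 0.1, adjusted p = 0.35). Without the sites of a median level of at least 20% this difference fell from 0.770 to 0.165 percentage points, and with at least 20 reads in every library it was 0.249. Uridine sites had 1.35 ± 0.120 treated reads per untreated read in control samples, against 1.24 ± 0.0469 after the knockdown (SD, n = 3), a difference with p = 0.3 by the exact permutation test (adjusted p = 0.35). Without control replicate 1 it shrank from -0.114 to -0.0514. Uridine sites held 15.4% ± 0.234 of all mismatched reads of the control table and 15.8% ± 0.634 of those of the knockdown table (SD, n = 3), and p was 0.5 by the exact permutation test (adjusted p = 0.5).

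The share of sites that were uridine was close in the tables, at 15.98% of control sites (95% Wilson interval 14.1% to 18.0%) and 16.1% of knockdown sites (13.9% to 18.5%). The knockdown table held 0.745 times as many uridine sites as the control table (exact 95% interval 0.604 to 0.918), and 0.739 times as many sites at the other bases (0.676 to 0.809). Both intervals cover counting error only, since each group was called once. The strands were evenly used in the control, with 108 sites on each, and 74 plus and 87 minus strand sites were listed in NAT10 knockdown.

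Compared with the other bases of the same library, uridine sites had higher levels and fewer reads. Their median level, 3.70% over the 6 treated libraries, exceeded that of cytidine sites (2.04%) by 1.66 ± 0.0757 percentage points, that of adenosine sites (1.94%) by 1.76 ± 0.0914 and that of guanosine sites (2.82%) by 0.886 ± 0.155 (SD, n = 6). Each difference was positive in 6 of 6 libraries, and each had p = 0.03125 by a two-sided exact sign-flip permutation test, the smallest 6 libraries can give (adjusted p = 0.03125). The libraries of a group shared their list of sites, so the sign in its 3 libraries was largely set by that list. Within a group of 3 the smallest p is 0.25. The median depth of a uridine site, 109 reads per library, was lower in 6 of 6 libraries than that of cytidine (213), adenosine (226) and guanosine sites (156). A uridine site had on average 4.58 ± 0.124 mismatched reads per control library and 4.53 ± 0.174 per knockdown library (SD, n = 3). Cytidine, adenosine and guanosine sites had 4.73, 4.79 and 4.80 in the control and 4.55, 4.68 and 4.64 in the knockdown. The median was 4 at every base in every treated library. Uridine sites thus had no excess of mismatched reads, and their higher level went with their lower depth.

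The gap depended on depth. Sites with fewer than 100 treated reads per library were 45.4% of control uridine sites and 22.3% of control sites at other bases, with median levels of 8.83% and 6.75%, so the gap was widest among the shallowest sites. From 100 to 200 reads the medians were 3.09% and 2.93%, from 200 to 400 reads 1.59% and 1.53%, and from 400 reads 1.22% and 1.16%. In NAT10 knockdown 47.2% of uridine sites and 23.0% of other sites were under 100 reads, with medians of 9.16% and 7.18%, and the higher bins gave 3.19% and 2.96%, 1.67% and 1.55%, and 1.21% and 1.15%. The part of depth in the difference between bases was not tested further.

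**Figure D3:**
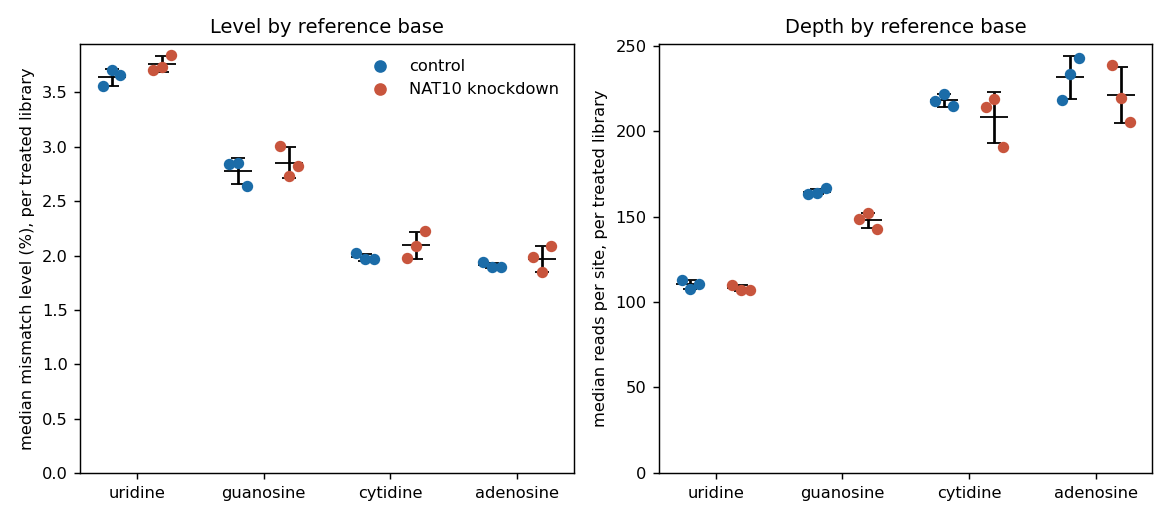
Median mismatch level (left, percent) and median reads per site (right) of the listed sites by reference base in each of the 6 treated libraries (points), with the mean and SD of each group of 3. Uridine has the highest level, 3.64% in the control and 3.76% in NAT10 knockdown, and the lowest depth.

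The untreated libraries set how low a background level could have been seen. With 0 mismatched reads, 3 reads of the untreated total is the upper limit, and the mean treated level lay above the limit of the 3 untreated libraries summed at 100% of uridine sites, as it did at 100% of all listed sites. Listed uridine sites had at least 3 mismatched reads per treated library and 0 per untreated one, so this share largely follows from the listing. Against the limit of its own untreated library, the treated level was higher in all 3 replicates at 40 of 216 control uridine sites (18.5%, against 21.5% of all control sites). This held at 37 of 161 sites in NAT10 knockdown (23.0%, against 32.5% of all sites). For the remaining sites a single untreated library was too shallow to show that its level lay below the treated one.

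Among sites with at least 20 reads in every treated library, the highest T-to-C levels of the control were in EDC4, OSBPL1A, FMNL3 and AHRR. EDC4, a scaffold of the mRNA decapping complex (chr16:67879767), gave C in 2, 3 and 14 reads of 26, 31 and 47, so the third replicate carried most of the signal, and its mismatch level was 17.7% ± 12.3 (SD, n = 3). FMNL3, a formin that elongates actin filaments (chr12:49649143), had the same shape, with C in 2, 3 and 8 reads of 37, 25 and 32. AHRR, the repressor of the aryl hydrocarbon receptor (chr5:427842), was even, with C in 4, 7 and 4 reads of 45, 36 and 37 and no other change. OSBPL1A, an oxysterol-binding protein relative (chr18:24225124), gave C in 4, 5 and 3 reads of 21, 33 and 25. In NAT10 knockdown the corresponding sites were in FBXW11, MRPL38, TAF5L and MGAT5B. FBXW11, a substrate receptor of an SCF ubiquitin ligase (chr5:171862669), gave C in 3, 5 and 7 reads of 30, 37 and 39, a mismatch level of 14.9% ± 2.61 (SD, n = 3). MRPL38, a protein of the mitochondrial ribosome (chr17:75902054), gave C in 5, 8 and 5 reads of 61, 57 and 54.

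With the same limit of at least 20 reads in every treated library, the 4 highest T-to-G levels of each table came from sites where no other change was read. REEP3, a protein of the endoplasmic reticulum membrane (chr10:63621373), gave G in 6, 4 and 10 reads of 63, 33 and 43, a level of 15.0% ± 7.29 (SD, n = 3). ARFGEF2, an exchange factor for ARF GTPases (chr20:49010369), gave G in 4, 3 and 7 reads of 47, 68 and 38. TLE3, a transcriptional corepressor of the Groucho family (chr15:70097818), gave G in 8, 11 and 4 reads of 82, 73 and 76, and ZBTB44 (chr11:130238508) in 4, 3 and 5 reads of 53, 35 and 36. In NAT10 knockdown the highest were a pair of sites 3 bases apart in AJUBA, a LIM domain scaffold of cell junctions (chr14:22981624 and chr14:22981627), with G in 3, 5 and 3 reads at both. CIAO1, which takes part in cytosolic iron-sulfur cluster assembly (chr2:96271849), gave G in 4, 4 and 6 reads of 27, 40 and 39, a level of 13.4% ± 2.96 (SD, n = 3). ZKSCAN8, a zinc finger protein (chr6:28153681), gave G in 3, 7 and 6 reads of 24, 41 and 60.

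Sites with the highest A levels were mixed, by the same limit on depth. DOP1A (chr6:83167883) gave A in 4, 2 and 4 reads of 25, 25 and 28, an A level of 12.8% ± 4.21 (SD, n = 3), and C in 2 reads of the second replicate. PLD1, a phospholipase D (chr3:171687520), gave A in 3, 4 and 2 reads of 23, 34 and 20, an A level of 11.6% ± 1.53 (SD, n = 3). CPEB1, which binds cytoplasmic polyadenylation elements (chr15:82549488), gave A in 8, 2 and 0 reads and C in 1, 2 and 3. KIDINS220, a scaffold of neurotrophin receptors (chr2:8770797), gave A in 0, 5 and 1 reads and C in 3, 1 and 3, so C led there. In NAT10 knockdown the 4 sites were in MGAT5B, NR2C2, KIF1B and RALGAPA1, and each also gave C in at least 2 libraries. MGAT5B, an N-acetylglucosaminyltransferase (chr17:76902629), was among the highest for both changes, with C in 2, 1 and 4 reads and A in 3, 2 and 3 reads of 26, 25 and 21.

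The deepest uridine sites had levels near 1%. TMEM259 (chr19:1014314) had 764, 687 and 642 treated reads and a level of 0.902% ± 0.405 (SD, n = 3) made of all 3 changes. TXNDC5, a protein disulfide isomerase (chr6:7889537), gave G in 6, 7 and 3 reads of 549, 640 and 625 and no other change. DDX6, an RNA helicase of mRNA repression (chr11:118779666), gave G in 5, 2 and 7 reads and C in 0, 6 and 0. LARP1, which binds the mRNAs of the translation machinery (chr5:154799698), was the deepest in NAT10 knockdown, with G in 4, 9 and 8 reads of 725, 739 and 643. The site before TAPBP, tapasin (chr6:33314144), gave C in 4, 2 and 6 reads and A in 6, 2 and 0 of 556, 619 and 560. ARHGEF2, an exchange factor for RhoA (chr1:155958378), gave G in 1, 4 and 6 reads and C in 2, 3 and 0 of 497, 535 and 454. The largest number of G reads at any uridine site was in HSP90AA1, a cytosolic chaperone (chr14:102081610), with 8, 10 and 13 of 430, 470 and 452 reads, which was chosen after its values were seen.

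Some uridine sites had another listed site close by on the same strand. A site within 10 bases was present for 27 of 216 control uridine sites (12.5%, 95% Wilson interval 8.73% to 17.6%) and for 17 of 161 in NAT10 knockdown (10.6%, 6.70% to 16.3%). In the control the other bases gave 15.7% for cytidine, 11.1% for adenosine and 17.4% for guanosine, and in NAT10 knockdown 19.2%, 7.18% and 11.4%. T-to-G sites had a neighbour at 20 of 83 control sites (24.1%) and 14 of 68 knockdown sites (20.6%). T-to-C sites had one at 5 of 103 (4.85%) and 2 of 59 (3.39%). The neighbours of control uridine sites formed 42 pairs, of which 16 (38.1%) had the same number of mismatched reads as the uridine site in each of the 3 libraries, and 11 of 31 pairs (35.5%) did so in NAT10 knockdown. Most of the equal control pairs came from the clusters in PTP4A1 and TRIP12. How often pairs without a uridine site had equal counts is not given here, so these shares have no background. In PTP4A1, a tyrosine phosphatase, the uridines chr6:63576872 and chr6:63576877 and 3 adenosines between 63576870 and 63576875 all had 4, 3 and 4 mismatched reads, with G as the sole change at both uridines. In TRIP12, a ubiquitin ligase, the uridine chr2:229810919 had A in 3, 7 and 7 reads, and the guanosine, cytidine and adenosine 7, 5 and 3 bases away had 3, 7 and 7 mismatched reads too. The tables give counts per position, so whether equal counts came from the same molecules cannot be told from them.

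Uridine sites lay mostly in protein-coding genes and towards their 3′ ends. A protein-coding gene span held 212 of 216 control sites and 159 of 161 knockdown sites. At the other bases it held 1118 of 1136 and 824 of 840 sites. The strand of the site was that of the gene at 187 and 145 sites, was unknown at 25 and 15, and was opposite at 0 in both tables. At the other bases it was opposite at 1 and 2 sites. Protein-coding spans on the strand of the site were assigned first and opposite spans last, so these counts largely follow from that rule. Only gene spans were used, so exon, intron and untranslated region were not analysed here. Among sites within 1 gene, the median position along the span was 75.7% in both tables. The last 20% of the span held 96 of 210 control sites (45.7%, 95% Wilson interval 39.1% to 52.5%), where 37.7% of control sites at other bases lay. It held 71 of 157 knockdown sites (45.2%, 37.6% to 53.0%), where 41.2% of other sites lay. In NAT10 knockdown the interval for uridine included the share at the other bases. In the control it lay above that share but overlapped the interval of the other bases (95% Wilson interval 34.9% to 40.6%). The difference was not tested. The first 20% held 25 (11.9%) and 18 (11.5%) uridine sites, where 19.4% and 14.6% of the sites at other bases lay. Within 1000 bases of the gene's end lay 28 control uridine sites (13.3%, against 10.3% at other bases) and 14 knockdown uridine sites (8.92%, against 12.1%). Within 100 bases of it lay 0 uridine sites, and 0.271% and 0.484% of the sites at other bases.

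**Figure D4:**
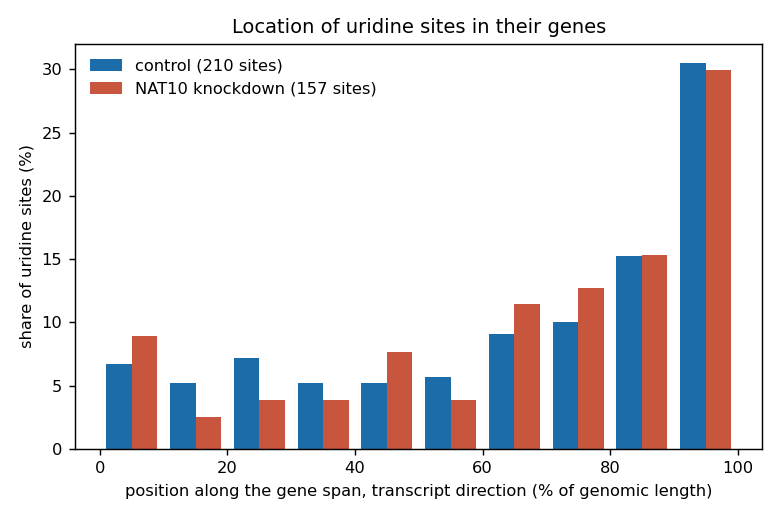
Share of uridine sites (percent) in steps of 10% of the gene span, counted in transcript direction along the genomic length, for the 210 control and 157 NAT10 knockdown sites that lay within a single gene. Both lists rise towards the 3′ end, and the last 20% holds 45.7% and 45.2% of the sites.

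The control sites named 203 genes and the knockdown sites 157. A gene had at most 2 uridine sites, which was the case for 11 gene names in the control and 6 in NAT10 knockdown, GAR1 and AJUBA among them. A uridine site in both tables was found for 9 genes, which is 4.43% of the control genes and 5.73% of the knockdown genes: NUP98, SLC38A2, MYADM, RERE, NOTCH2, RFX5, CIAO1, UBE2B and PRRC2A. For genes with a guanosine site, of which there were 213 and 150, the number in both tables was also 9 (4.23% and 6%), and for cytidine it was 21 (6.03% and 8.27%) and for adenosine 48 (9.78% and 13.0%). The uridine position was different in each. RFX5, a factor of MHC class II transcription, had its sites closest, at chr1:151346563 in the control and chr1:151346604 in NAT10 knockdown, with levels of 1.55% ± 0.230 and 3.96% ± 1.43 (SD, n = 3). NOTCH2, a receptor of the Notch pathway, gave G alone in 8, 12 and 3 reads at chr1:119937345 in the control and a mixture of C, G and A at chr1:119916314 in NAT10 knockdown. In NUP98, a nuclear pore protein, both sites were led by G, at levels of 1.06% ± 0.388 and 1.20% ± 0.124 (SD, n = 3). In SLC38A2, a transporter of neutral amino acids, both were also led by G, at 5.41% ± 1.49 and 2.20% ± 1.48 (SD, n = 3). UBE2B, a ubiquitin-conjugating enzyme, was led by A in the control and gave G alone in 5, 8 and 4 reads in NAT10 knockdown. PRRC2A was led by C in the control and gave G alone in 4, 3 and 5 reads in NAT10 knockdown, and MYADM likewise by C and by G alone, in 4, 4 and 4 reads. RERE, a transcriptional corepressor, was led by C in the control and had C and A tied in NAT10 knockdown.

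At 3 places a knockdown uridine site lay within 10 bases of a control site at another base. How often knockdown sites at other bases lay so close to a control site is not given here. In CD44, the hyaluronan receptor, the uridine chr11:35230053 was next to the control cytidine 35230054, and gave G in 6, 10 and 8 reads of 521, 595 and 242 and no other change. In NUCKS1, a nuclear phosphoprotein, the uridine chr1:205715603 lay 7 and 5 bases from a control cytidine and adenosine, and gave G in 12, 6 and 4 reads of 375, 381 and 265. In BCAR1, a scaffold of integrin signalling, the uridine chr16:75233883 lay 6 bases from a control guanosine, and gave C in 3, 0 and 4 and A in 1, 3 and 0 reads of 156, 157 and 120. Its level was 2.60% ± 0.712 (SD, n = 3), with 0 mismatches in 88, 93 and 93 untreated reads. BCAR1 was the one gene among those the study followed by this assay that held a uridine site, which was listed in NAT10 knockdown, and the groups could not be compared at the position because it is not among the control sites analysed here. The 9 genes counted are those the study named for this assay, and NAT10. The study chose its genes in part from these ac4C-seq data, so their counts of listed sites partly follow from that choice. Of the 9 genes counted, 9 had any listed site in the control, with 0 at a uridine. In NAT10 knockdown 3 had any listed site, with 1 at a uridine, too few to read anything from.

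Of 29 enzymes that modify uridine, 3 had a listed site in the control, each of them at a uridine, and 2 had one in NAT10 knockdown, with 0 at a uridine. Of all genes with a listed site, 19.0% and 19.1% had a uridine site, and 3 and 2 enzymes are too few to compare with this. PUS1, a pseudouridine synthase (chr12:131941321), had a level of 3.14% ± 1.10, MTO1, which modifies the wobble uridine of mitochondrial tRNA (chr6:73473524), 4.04% ± 1.09, and RPUSD3, a mitochondrial pseudouridine synthase (chr3:9842204), 2.46% ± 0.292 (SD, n = 3 each). Of 69 focal adhesion and integrin genes, 12 had a listed site in the control, with uridine sites in PXN and SHC1, and 8 in NAT10 knockdown, with a uridine site in BCAR1. Both sites of PXN, the adhesion adaptor paxillin, lay 2 bases apart (chr12:120212521 and chr12:120212523) with levels of 1.32% ± 0.425 and 1.09% ± 0.0395 (SD, n = 3). The laminin genes LAMA5 in the control and LAMC1 in NAT10 knockdown were the basement membrane genes with a uridine site, among 5 and 6 with any site, at 1.05% ± 0.244 and 10.9% ± 9.30 (SD, n = 3), the latter with 3, 5 and 9 mismatched reads of 80, 66 and 42.

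Among cytoskeletal genes IQGAP1 had a uridine site in the control (6 genes had any listed site), and AHNAK and MAP4 had one in NAT10 knockdown (of 11). Among splicing and RNA-binding proteins these were DHX9 in the control (of 14) and SRRM2 and U2AF1 in NAT10 knockdown (of 9). Among chromatin regulators they were ARID1A and SETD1A in the control (of 10) and CHD2, CREBBP and SETD5 in NAT10 knockdown (of 10). HSP90AA1 was the one chaperone, in the control (of 4, and 0 of 5 in NAT10 knockdown). Ribosomal protein, translation factor and glycolysis genes held 0 uridine sites, but just 2, 5 and 1 of them in the control and 1, 3 and 1 in NAT10 knockdown had any listed site, too few to read anything from the 0. Over all 409 genes of these lists, 11 of the 65 with any listed site had a uridine site in the control (16.9%, against 19.0% of all genes with a listed site). In NAT10 knockdown this was 9 of 57 (15.8%, against 19.1%), so the lists as a whole lay near the background. No uridine site fell in an annotated miRNA hairpin.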

How the data were processed

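The 12 libraries were ac4C-seq libraries of PANC-1 mRNA, NaBH4-treated and untreated. By the study's methods, the authors filtered reads with fastp 0.23.1, removed duplicates by molecular identifier in proprietary software, found variant positions with JACUSA and tested them in a second proprietary program. The submitters' processing notes also name STAR 2.7.6a, featureCounts and GRCh38, without saying what each was used for. The deposited counts are reads with the reference base and with any other base per site and library, and further deposited columns give the count of each base. The deposited fraction is mismatched over all reads, and the authors' p-value per site was used only as a filter. A total of 12 columns of letter codes were not used.

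Uridine sites are the listed sites with base T. Base counts gave the level and the changes per library, with Python 3.11.15, numpy 2.4.6, pandas 2.3.3 and scipy 1.17.1. Groups were compared with exact permutation tests and bases with exact sign-flip tests, both two-sided and Benjamini-Hochberg adjusted, after a check on simulated data. A limit is 3 reads over the untreated total. Each group was called once as a joint list, so all intervals cover counting error only. Gene spans, windows and hairpins came from RefSeq (GRCh38.p14). A transcript base counts from the start that the window holds, and 88.8% of windows start at the first base of their gene. The members and gene lists were chosen with earlier results of these data known. Named sites were, by a stated rule, the 4 with the highest level of each change among sites with at least 20 reads in every treated library, the 3 deepest, those in genes the study followed, in both tables or within 10 bases of a site of the other table, and list members. Sites with the highest overall level, the depth bins, the depth per base, the gene overlap by base and examples of equal neighbours were added after values were seen. Alternatives were a depth minimum, removal of neighbours or of levels from 20%, the authors' p-value under 0.01, equal weights, other limits, and leaving out each replicate.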

Additional observations from a re-analysis of the deposited data

How the results depend on the processing

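Alternative processing gave 143 values for 15 results, of which 104 kept their direction and call. No between-group test could reach the threshold of 0.05 under any setting, so for those results only the direction could change. The difference in median mismatch level, NAT10 knockdown minus control, turned to -0.288 percentage points without sites that have a neighbour within 10 bases, to -0.110 with the authors' p-value under 0.01 and to -0.0500 without sites of a median level of at least 20%. The difference in the share of all mismatched reads that lie at uridine sites turned to -0.485 and -0.101 percentage points under the latter settings. Without neighbours, one change was present in every treated library at 31.7% of control and 25.7% of knockdown sites, and with a single read required it was 90.3% and 84.5%. Against the limit of each replicate's own untreated library, 18.5% and 23.0% of the sites lay above it. The causes were not tested, except that a lower requirement must admit more sites and a shallower untreated total must give a higher limit.

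Leaving out each library in turn moved the excess of uridine over cytidine between 1.65 and 1.69 percentage points, over adenosine between 1.74 and 1.79 and over guanosine between 0.858 and 0.924, each with an exact permutation p of 0.0625, the smallest that 5 libraries give. Sites above the untreated limit were then 95.8% to 97.2% in the control and 97.5% to 98.8% in NAT10 knockdown. Sites with one change in every library were 49.1% to 51.4% and 46.0% to 48.4%, where 2 libraries had to meet the rule. By the same step, the T-to-C difference ran from -6.90 to -4.46 percentage points, T-to-G from 2.09 to 5.61 and T-to-A from 1.26 (without knockdown replicate 1) to 3.66. The share of mismatched reads at uridine ran from 0.108 (without knockdown replicate 2) to 0.717 (without knockdown replicate 1), and the treated to untreated read ratio from -0.171 to -0.0514 (without control replicate 1). With the replicate number as a block the T-to-C difference was -5.83 percentage points (exact sign-flip p = 0.25, the smallest that 3 pairs give), so no call could change. The tables shared no uridine position, so whether the numbers pair the samples could not be checked at shared sites. A median of 4 mismatched reads per site and library limits every level given for a single site.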
